A study of Homo sapiens with 4 samples.

Results

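The long arm of human chromosome 5 was followed bin by bin in lamin B1 chromatin immunoprecipitation and sequencing (ChIP-seq) of 2 prostate cancer cell lines. Its members are all chromosome 5 table entries of 40 kb beyond the centromere that hold a value in both lines. There were 3273 such bins of 71436 bins with a value in both lines, and they cover 130.9 Mb between 49520001 and 180840000 in the hg19 build. All positions below are hg19 positions, given to the base or in Mb. The rule that selects the bins uses their position and no measured value.

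Both lines are established and are labelled as prostate cancer. LNCaP was first grown from a lymph node metastasis and VCaP from a bone metastasis, and the labels name no drug or genetic change in either. LNCaP was kept in RPMI medium and VCaP in a DMEM and F12 mixture, both with serum, so medium and line cannot be told apart. Both lines were fixed with 1% formaldehyde for 10 minutes before lysis and sonication. Each line had 1 library made with an antibody to lamin B1 and 1 input library made without antibody, which gives 4 groups of 1 library. No difference below has a replicate check and no p-value is given. The deposited value of a bin is the log2 ratio of the lamin B1 library to the input library of the same line, and higher values mean more lamin B1 signal relative to input. How the libraries were scaled is not given in the sources used here, so the place of 0 is the deposited one. The deposited tables also give each bin 1 of 2 states from a hidden Markov model, and the state with the higher values is called the associated state here. The tables carry no read counts, which leaves the depth of the libraries unknown and allows no counting interval.

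Lamin B1 is a filament protein of the nuclear lamina, the meshwork that lines the inner nuclear membrane. Chromatin that touches the lamina forms long domains, which in most cell types hold few and mostly silent genes, and gene-rich active chromatin tends to lie away from it. As a chromosome arm passes in and out of these domains, a lamin B1 profile along it alternates between high and low stretches. The long arm of chromosome 5 carries, in order from the centromere, genes such as PIK3R1 (a regulatory subunit of PI3-kinase), MSH3 and XRCC4 (DNA mismatch and double-strand break repair), CHD1 (a chromatin remodeler), APC (a scaffold that restrains Wnt signalling), the IL3 to IL4 cytokine cluster, the clustered protocadherins, NR3C1 (the glucocorticoid receptor) and NSD1 (a histone methyltransferase). This order comes from a RefSeq table of GRCh38, in which 85 of 85 listed genes of the arm were matched. Since that table is of another build, which gene lies in which bin was not analysed here. The long arm is known as a heavily rearranged region of the VCaP genome. The files hold the ratio to input and no copy number, so the part of rearrangement in any level below was not tested.

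Noise is given as the SD of a single bin, estimated from bins 3 apart, since each deposited value behaves as a mean over 3 neighbouring entries. On the long arm it was 0.17 log2 units in LNCaP, 0.23 in VCaP and 0.20 for the VCaP minus LNCaP difference. On all other chromosomes it was 0.15, 0.22 and 0.20. The stretch from 68 to 71 Mb stood apart. It held 65 member bins and 10 positions without one. Values in it ran from -2.10 to 0.52 in LNCaP and from -1.07 to 1.06 in VCaP, and the noise of the difference was 1.88 times that of the arm. Without this stretch the fits below gave the same number of levels in each line. The LNCaP mean up to its first step was then 0.14 in place of 0.09, and the median difference of the arm was -0.11.

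Over the whole arm, lamin B1 enrichment was higher in LNCaP than in VCaP. The median bin stood at 0.14 in LNCaP (interquartile range -0.13 to 0.40) and at 0.07 in VCaP (-0.20 to 0.34). The median difference, VCaP minus LNCaP, was -0.10 (interquartile range -0.39 to 0.22). This is the opposite direction to the rest of the genome, where the median difference over 67001 bins was 0.11, with LNCaP at 0.05 and VCaP at 0.20. The median difference was below 0 on 10 of 41 chromosome arms with at least 500 bins, and 6q, 1q, 3q and 4q stood lower than this arm. On the short arm of the same chromosome it was 0.12 over 1159 bins. The sizes of these shifts are below the noise of a single bin, and their errors between libraries are unknown. With each line centred on its own median over all bins, the VCaP median of the arm became -0.12, and the difference became -0.24.

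The states showed the same order of the lines. The associated state held 1590 long-arm bins in LNCaP, or 48.6%, against 37.9% of all bins in that line. In VCaP it held 1071 long-arm bins, or 32.7%, against 44.4% of all bins. LNCaP was thus above its own genome share on the arm, and VCaP was below its own. The short arm had the same order of states to a smaller extent, with 40.6% in LNCaP and 36.3% in VCaP. Its enrichment had the opposite order, with medians of 0.09 in LNCaP and 0.19 in VCaP, and 59.0% and 70.1% of bins over 0. State shares and enrichment thus need not rank the lines alike. Bins associated in LNCaP only numbered 973, or 29.7% of the arm, against 17.2% of all bins. Bins associated in VCaP only numbered 454, or 13.9%, against 23.8% of all bins. Both lines were associated in 617 bins (18.9%, against 20.6% of all bins) and neither in 1229 (37.5%, against 38.4%), both near the background.

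A difference of more than 0.5 log2 units is 2.48 times the noise SD of a single difference. VCaP exceeded LNCaP by more than that in 384 long-arm bins, or 11.7%, against a background of 21.3% of all bins. LNCaP exceeded VCaP by more than that in 577 bins, or 17.6%, against 9.33% of all bins. Against the background, the balance of the arm was turned towards LNCaP. Centring each line on its median subtracts a constant from every difference. It gave 7.67% and 26.7% on the arm, against 14.8% and 15.6% of all bins. At a threshold of 1 log2 unit VCaP was higher in 2.60% of the arm, against 3.83% of all bins, and LNCaP was higher in 1.34%, against 0.735% of all bins.

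Among 41 chromosome arms with at least 500 bins, the share in VCaP minus that in LNCaP was -15.9 percentage points on this arm, the 4th lowest, where the median arm had 9.19. The share was higher in LNCaP on 16 of the 41 arms. The long arm of chromosome 5 is thus among the arms with the strongest tilt to LNCaP, after 1q, 4q and 8p. By median enrichment it ranked 12th from the top in LNCaP and 5th from the bottom in VCaP.

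**Figure D1:**
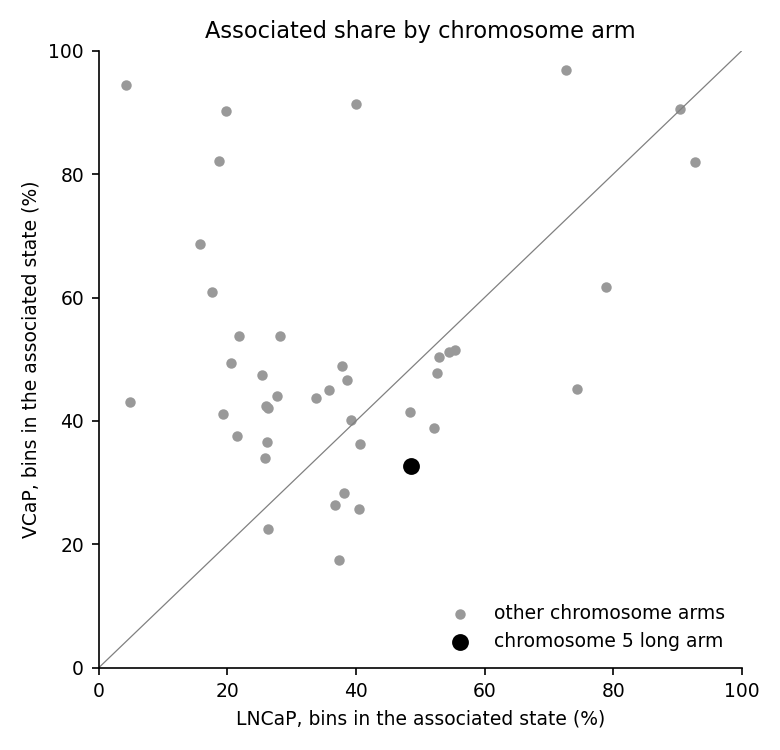
Percentage of bins in the associated state in LNCaP (horizontal axis) and VCaP (vertical axis) for the 41 chromosome arms of at least 500 bins, 1 point per arm, with the line of equal shares in grey. The black point is the long arm of chromosome 5, at 48.6% in LNCaP and 32.7% in VCaP, below the line.

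The whole-arm values hide a profile in VCaP that climbs in steps towards the telomere. A piecewise constant fit to means of 120 kb, with segments of at least 2 Mb, divided the VCaP profile into 3 stretches. The first, from 49520001 to 131160000, averaged -0.08 (SD over 2031 bins 0.33). The middle one, from 131160001 to 167160000, averaged 0.24 (SD over 900 bins 0.36). The last, from 167160001 to 180840000, averaged 0.55 (SD over 342 bins 0.33). The steps between them were 0.32 and 0.31 log2 units. Each step is thus about as large as the spread of bins inside a stretch, and it describes the mean of many bins and not single bins. Level changes of this kind in VCaP were not particular to this arm. Among the 41 arms with at least 500 bins, the median arm also had 3 fitted levels in VCaP. The range of VCaP levels here, 0.63, ranked 14th from the top, and the median arm had 0.53. The short arm had 2 VCaP levels with a range of 0.57. The range of LNCaP levels on the long arm, 1.10, ranked 6th.

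The first step lay at 131.16 Mb. The fit placed both steps where VCaP values differ, so the VCaP contrasts across them are a description only. The median VCaP value of the 1 Mb before the first step was -0.22 and that of the 1 Mb after it was 0.46. Over 5 Mb on either side the medians were -0.09 and 0.45. Both the low and the high bins moved: the 10th percentile over 5 Mb went from -0.52 to 0.04, and the 90th percentile from 0.34 to 0.82. The nearest step of LNCaP in the main fit lay 12.48 Mb away. With the penalty of the fit halved, LNCaP had a closer step, a downward one of -0.56 at 130.32 Mb. LNCaP medians went from -0.13 to 0.09 over 1 Mb and from 0.20 to 0.13 over 5 Mb. At the second step, at 167.16 Mb, the VCaP median went from 0.09 in the 5 Mb before to 0.56 in the 5 Mb after, the 10th percentile from -0.37 to 0.00025 and the 90th from 0.43 to 0.87. LNCaP also stood higher after this position, at 0.11 before and 0.32 after, and with a halved penalty it had an upward step of 0.56 at 165.60 Mb.

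A step within 2 Mb of the first was found in VCaP under each of 6 other settings of the fit, and the second under 4 of 6. With a doubled penalty, or with 1 bin in 3, the middle and last stretches were joined, at means of 0.32 and 0.33. Centring each line left the order of the 3 stretches as it was, at -0.27, 0.05 and 0.36, so that the middle stretch lies near the VCaP genome median and the outer ones lie below and above it.

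**Figure D2:**
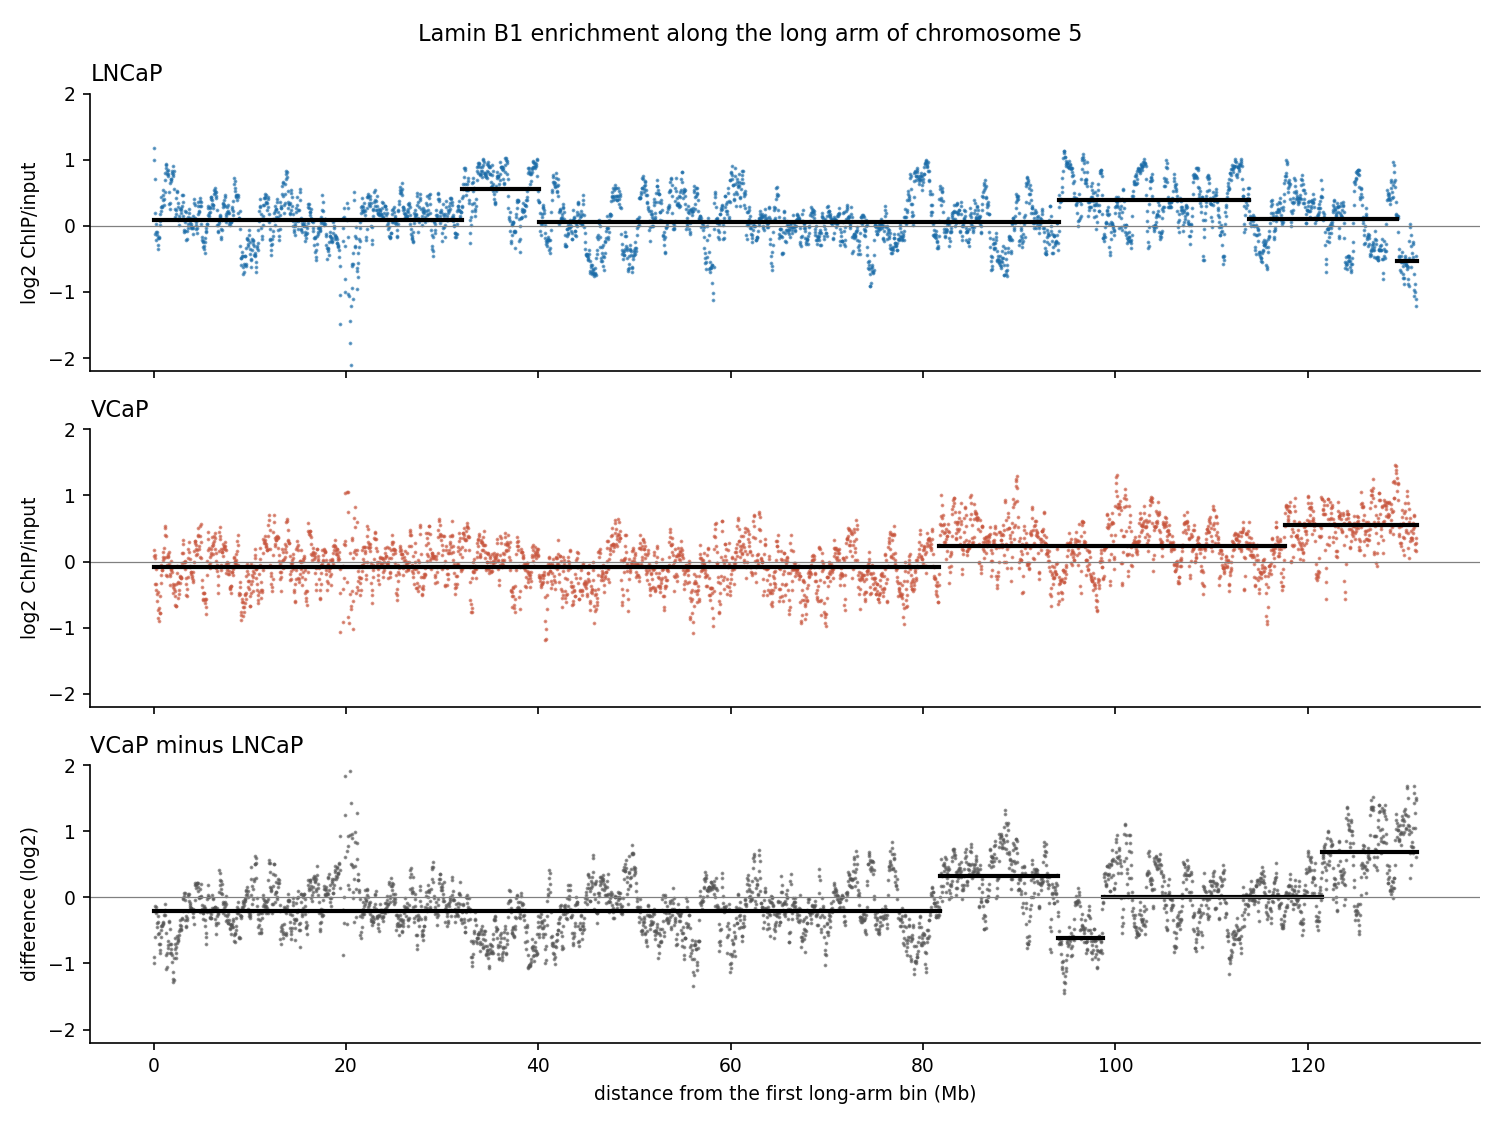
Log2 lamin B1 over input in LNCaP (top), VCaP (middle) and their difference (bottom) for the 3273 bins of the long arm, against the distance in Mb from the first bin; each point is a 40 kb bin and black lines are the fitted levels. VCaP shows 3 levels, -0.08, 0.24 and 0.55, with steps 81.64 and 117.64 Mb from the first bin, and LNCaP shows 6 levels with both upward and downward steps.

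The 3 stretches were chosen from the VCaP values, so the VCaP state within them is a description. In the first stretch 12.5% of bins were in the associated state in VCaP, in the middle stretch 54.9% and in the last 94.4%. LNCaP was not used to place these borders. Its associated share was 45.2%, 55.4% and 50.9% in the same stretches, and its mean enrichment was 0.13, 0.22 and 0.04. LNCaP thus did not rise from each stretch to the next. Since the borders were fitted to VCaP, a larger contrast in VCaP is built in, and the sizes cannot be compared here. Each on its own fit, the range of levels on the arm was 1.10 in LNCaP and 0.63 in VCaP. The share of bins associated in LNCaP only went from 37.0% in the first stretch to 23.4% and 2.92%, and the share associated in VCaP only went from 4.38% to 22.9% and 46.5%.

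**Figure D3:**
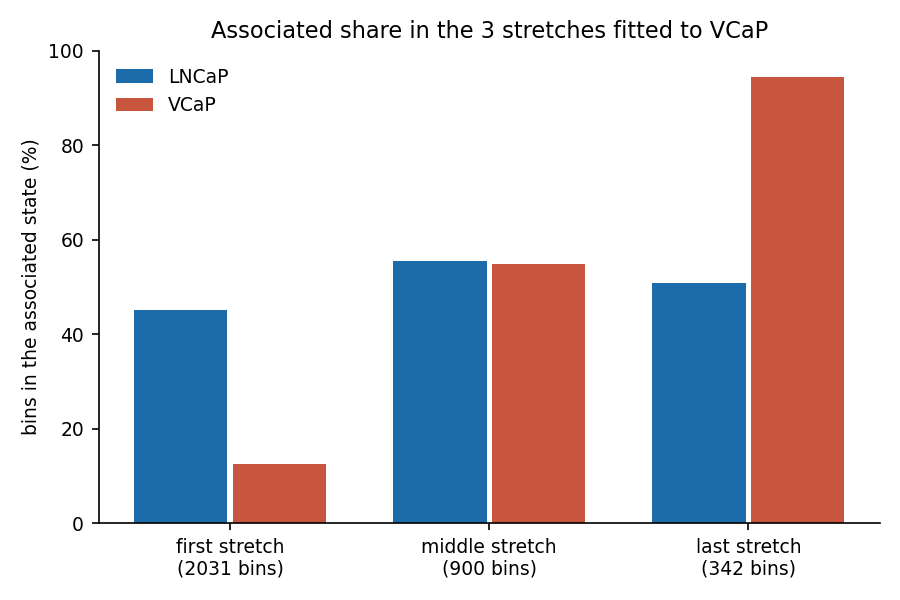
Percentage of bins in the associated state in LNCaP and VCaP within the first (2031 bins), middle (900 bins) and last (342 bins) stretch fitted to the VCaP profile; bars are single values with no replicate. LNCaP stays between 45.2% and 55.4% while VCaP goes from 12.5% to 94.4%.

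In adjacent windows of 5 Mb, the median VCaP minus LNCaP difference was below 0 in 13 of the 16 windows that end before the first VCaP step. In the 11 later windows it was above 0 in 8. VCaP medians lay between -0.25 and 0.13 in the 16 earlier windows and between 0.04 and 0.65 in the 11 later ones. The windows were divided at a step fitted to VCaP. A contrast in VCaP, and so in the difference, is therefore built in, and these values are a description only. The later windows were not uniformly high: those that start at 139.5 and 144.5 Mb had VCaP medians of 0.04 and 0.12, inside the range of the earlier windows. LNCaP medians overlapped over most of their range, which was -0.35 to 0.58 in the earlier and -0.59 to 0.37 in the later windows. The step was not fitted to LNCaP, so this overlap is not a like comparison with VCaP.

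The high and low edges of the VCaP profile moved together at the distal end. In the window from 174.5 to 179.5 Mb the 10th percentile of VCaP bins was 0.24, the median 0.65 and the 90th percentile 1.08, each the highest of the arm, and 100% of 125 bins were in the associated state. The 10th percentile there stood above the VCaP median of the first stretch, which was -0.06, and below its 90th percentile of 0.34. On the other chromosomes 14 of 516 such windows were fully associated in VCaP, so the state of this window is rare but found elsewhere. In LNCaP the same window had a median of -0.17, a 10th percentile of -0.51 and 34.4% of bins associated.

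At the other extreme, VCaP had no associated bin in 3 full windows, from 84.5 to 89.5, 89.5 to 94.5 and 114.5 to 119.5 Mb. On the other chromosomes 50 of 516 windows had none. LNCaP differed most from this in the first of them, with 80% of bins associated and a median of 0.58, against 0.03 in VCaP. In the window from 114.5 to 119.5 Mb neither line had an associated bin, with medians of -0.05 in LNCaP and -0.21 in VCaP.

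**Figure D4:**
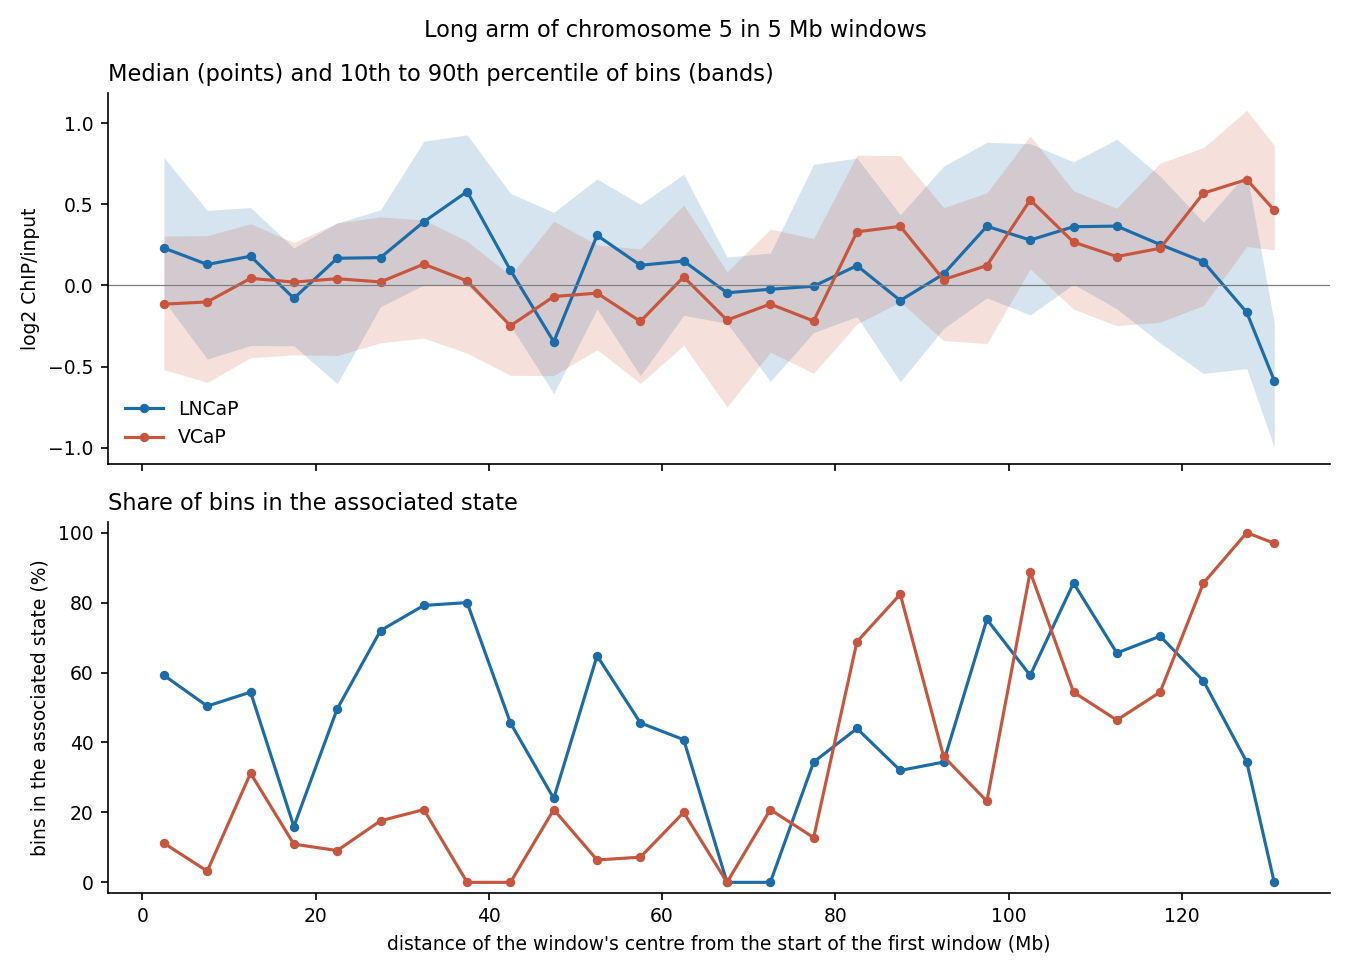
Top, median log2 enrichment (points) and 10th to 90th percentile of bins (bands) in 5 Mb windows of the long arm, and bottom, percentage of bins in the associated state, in LNCaP and VCaP, against distance from the start of the first window; the last window holds only 33 bins. The VCaP band stands higher in most windows from the one that starts 80 Mb along, comes down in a pair of windows with medians of 0.04 and 0.12, and is highest near the end of the arm, where LNCaP goes down.

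LNCaP changed level in both directions. The fit gave 6 segments, with means of 0.09 up to 81.60 Mb, 0.56 from there to 89.64 Mb, 0.05 up to 143.64 Mb, 0.40 up to 163.44 Mb, 0.10 up to 178.80 Mb and -0.54 at the end. The high segment from 81600001 to 89640000 had 85.1% of its bins associated in LNCaP and 8.46% in VCaP, with VCaP at a mean of 0.02. The last segment, from 178800001 to 180840000, had 0% of its 51 bins associated in LNCaP and 98.0% in VCaP. Steps of over 0.3 were those of 0.46 at 81.60 Mb, -0.50 at 89.64 Mb, 0.34 at 143.64 Mb and -0.64 at 178.80 Mb, and the step at 163.44 Mb, of -0.296, fell short of that size. These levels depend more on the fit than those of VCaP: a doubled penalty left 1 segment, and a halved penalty gave 23. In order along the arm, the 5 LNCaP steps were found within 2 Mb under 5, 4, 5, 3 and 3 of the 6 other settings.

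The difference between the lines had 5 levels. It was -0.20 (SD over 2034 bins 0.38) up to 131.28 Mb, 0.32 (306 bins, SD 0.38) up to 143.52 Mb, -0.61 (117 bins, SD 0.33) up to 148.20 Mb, -0.0003 (570 bins, SD 0.39) up to 171.00 Mb and 0.68 (246 bins, SD 0.48) to the end. The difference thus passed from LNCaP-higher to VCaP-higher and back between 131.28 and 148.20 Mb. The steps were 0.53, -0.93, 0.61 and 0.68 log2 units. The steps at 131.28 and 171.00 Mb were found under 6 of 6 other settings and those at 143.52 and 148.20 Mb under 5 of 6.

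The segment from 143520001 to 148200000 had the lowest mean of these 5. With a halved penalty a segment from 127.44 to 130.32 Mb was lower, at -0.65. In the segment from 143520001 to 148200000 LNCaP averaged 0.57 with 97.4% of bins associated, and VCaP averaged -0.04 with 8.55% associated. Of its 117 bins, 114 form a single LNCaP domain, a run of adjacent associated bins from 143640001 to 148200000. VCaP passed from a level of 0.33 in the 306 bins before this segment to -0.04 in it and 0.29 after it, while LNCaP went from 0.002 to 0.57 to 0.29. Close to the proximal border the contrast lay in LNCaP: over 1 Mb on either side its median went from -0.15 to 0.72 and that of VCaP from -0.16 to -0.28. At the distal border both lines moved, LNCaP from 0.34 to 0.03 and VCaP from -0.33 to 0.23.

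The last segment, from 171000001 to 180840000, had the highest mean of these 5. VCaP averaged 0.58 with 96.3% of bins associated, and LNCaP averaged -0.10 with 31.7% associated. VCaP exceeded LNCaP by more than 0.5 in 154 of its 246 bins, or 62.6%, against 21.3% of all bins. Since the 5 segments were fitted to the difference itself, the shares of such bins in them are a description only. The other 4 segments held the remaining calls in this direction, with 32.4% of bins from 131.28 to 143.52 Mb, 10.2% from 148.20 to 171.00 Mb, 3.59% before 131.28 Mb and 0% from 143.52 to 148.20 Mb.

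Windows of 1 Mb, each with 25 bins, show the sharpest contrasts. VCaP exceeded LNCaP most from 179.08 to 180.08 Mb, with means of 0.53 (SD over bins 0.28) in VCaP and -0.63 (SD 0.14) in LNCaP, a difference of 1.16. This window is also the lowest of the arm in LNCaP. The next 4 started at 176.72, 175.68, 137.40 and 173.36 Mb, with differences of 1.08, 0.94, 0.93 and 0.86. Of these 5, 4 lie in the last VCaP stretch, and 1, at 137.40 to 138.40 Mb, lies in the middle one, with LNCaP at -0.54 and VCaP at 0.38.

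LNCaP exceeded VCaP most from 143.64 to 144.64 Mb, with means of 0.77 (SD 0.29) and -0.17 (SD 0.23), a difference of -0.94. The next 4 started at 88.40, 50.80, 105.24 and 128.12 Mb, with differences of -0.88, -0.83, -0.83 and -0.78. In 4 of the 5 windows all 25 bins were associated in LNCaP, and in the one at 105.24 Mb 20 were. VCaP had 0 associated bins in all 5. The window at 105.24 Mb was also the lowest of the arm in VCaP, at -0.54.

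High values were shared in some places. The highest 1 Mb windows of LNCaP started at 144.04 Mb (mean 0.94), 161.68 Mb (0.89) and 151.72 Mb (0.87). VCaP had 0 associated bins in the first of them, and 25 of 25 in both of the others, with means of 0.32 and 0.49. The highest windows of VCaP started at 177.96 Mb (0.96), 176.88 Mb (0.74) and 149.08 Mb (0.71), where LNCaP had means of 0.45, -0.25 and 0.18. The low windows at 58.56 Mb in VCaP (-0.52) and at 94.6 Mb in LNCaP (-0.61) were low in the other line too, at -0.42 in LNCaP and -0.44 in VCaP. Another low VCaP window, at 116.60 Mb (-0.51), had LNCaP at -0.09. The other low LNCaP window, at 69.92 Mb (-0.62), falls in the uneven stretch, where the SD over its bins was 0.60.

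The alternation of domains was counted next. Runs of adjacent associated bins numbered 57 in LNCaP and 55 in VCaP. Their median was 800 kb in LNCaP, with quartiles of 440 and 1360 kb, and 400 kb in VCaP, with quartiles of 240 and 780 kb. The lines thus had similar numbers of domains on the arm, and over the whole arm the median domain of VCaP was shorter. This order did not hold in the last stretch, as given below. On the other chromosomes the medians were 720 kb in LNCaP and 560 kb in VCaP. The state switched 8.63 times per 10 Mb in LNCaP and 8.33 times in VCaP, against 6.32 and 8.21 on the other chromosomes. Among the 41 arms, the long arm of chromosome 5 had the 2nd highest rate of switching in LNCaP and the 21st in VCaP, so the arm alternates often in LNCaP and as often as the middle arm in VCaP.

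The longest domains of LNCaP were spread over the arm. They ran from 166240001 to 171080000 (4.84 Mb), 143640001 to 148200000 (4.56 Mb), 82560001 to 86440000 (3.88 Mb), 127800001 to 130520000 (2.72 Mb) and 154400001 to 157040000 (2.64 Mb). VCaP was associated in 77.7%, 8.77%, 0%, 22.1% and 63.6% of their bins, so agreement ranged from most of the domain to none of it. The domain from 82560001 averaged 0.73 in LNCaP and 0.07 in VCaP.

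The longest domains of VCaP all lay beyond the first step. They ran from 173480001 to 180800000 (7.32 Mb), 151280001 to 155520000 (4.24 Mb), 167080001 to 170320000 (3.24 Mb), 171480001 to 173320000 (1.84 Mb) and 133720001 to 135480000 (1.76 Mb). LNCaP was associated in 26.8%, 71.7%, 100%, 58.7% and 25% of their bins. The 3rd of them is thus wholly contained in the longest LNCaP domain, with means of 0.52 in VCaP and 0.43 in LNCaP. The longest stretch without an associated bin was 13.32 Mb in LNCaP, from 114480001 to 127800000, and 14.72 Mb in VCaP, from 82320001 to 97040000. In the LNCaP gap LNCaP averaged -0.08, and VCaP had 12.6% of its bins associated. The VCaP gap held 57.1% associated bins in LNCaP, with means of -0.14 in VCaP and 0.25 in LNCaP.

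The lengths of VCaP domains differed between the 3 stretches. Since these were fitted to the VCaP level, and domains are runs in the higher state, this is a description only. The first stretch had 29 VCaP domains with a median of 280 kb, or 3.57 per 10 Mb. The middle stretch had 23 domains with a median of 720 kb, or 6.39 per 10 Mb, and the last had 4 domains with a median of 2500 kb. LNCaP domains had medians of 760, 880 and 920 kb in the same stretches. The VCaP values still swung inside each stretch: the 10th to 90th percentile ran from -0.51 to 0.34 in the first, from -0.25 to 0.69 in the middle and from 0.15 to 0.93 in the last. The noise SD was 0.23, 0.22 and 0.24. The swing was of like width at 3 heights. Borders between states had a median step of 0.40 in LNCaP and 0.50 in VCaP, measured as the difference between medians of 5 bins on either side, against 0.39 and 0.52 on the other chromosomes.

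With a running median of 5 Mb removed, the autocorrelation started high, passed through 0 and turned negative. Likeness of bins at distances of 1 and 2 bins is built in by the averaging of the deposited values. The autocorrelation reached 0 at 0.84 Mb in LNCaP and 0.60 Mb in VCaP. It was lowest at 1.84 Mb in LNCaP (-0.27) and at 2.16 Mb in VCaP (-0.16), and had its next maximum at 3.52 Mb (0.09) and 3.56 Mb (0.10). The difference between the lines had its minimum at 1.80 Mb (-0.29) and its next maximum at 3.76 Mb (0.20). These are weak values, and the minimum moved to 2.80 Mb in LNCaP, 3.16 Mb in VCaP and 2.76 Mb in the difference when a running median of 10 Mb was removed, so this distance depends on the window removed. On the short arm the next maxima lay at 4.44 Mb in LNCaP and 2.80 Mb in VCaP.

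**Figure D5:**
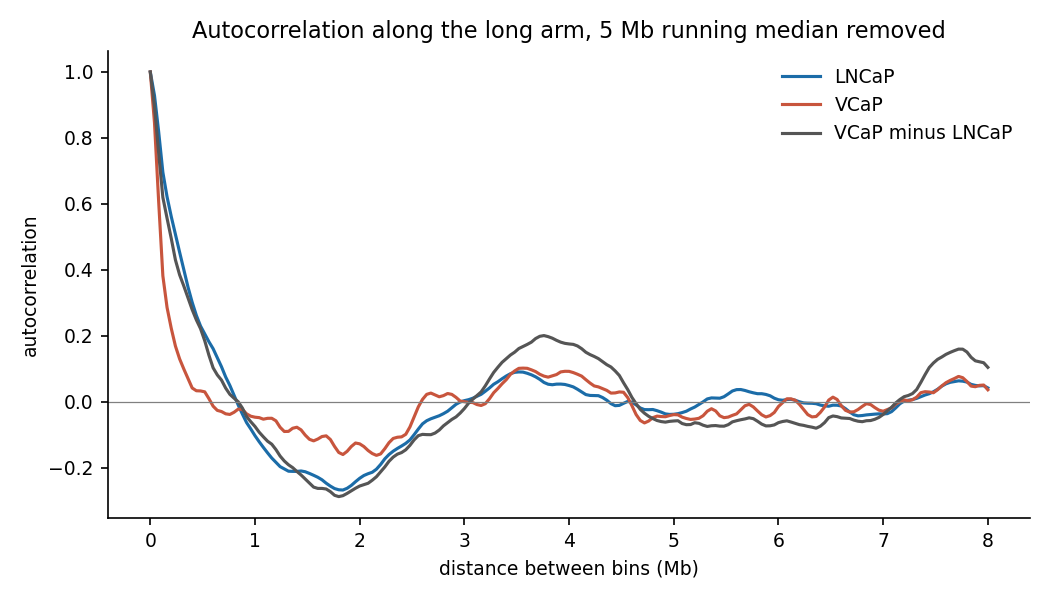
Autocorrelation of LNCaP, VCaP and the VCaP minus LNCaP difference along the long arm (vertical axis) against the distance between bins in Mb (horizontal axis), after removal of a running median of 5 Mb. The curves fall below 0 within 1 Mb, are lowest at 1.84, 2.16 and 1.80 Mb, and have a low second maximum between 3.52 and 3.76 Mb.

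The variance of the profiles was split by scale. Of the VCaP variance on the arm, 32.0% lay between windows of 10 Mb, 10.4% between windows of 2 Mb inside them, 26.2% between windows of 400 kb inside those and 31.4% between bins. In LNCaP the shares were 16.9%, 24.8%, 37.2% and 21.0%. VCaP thus had more of its variance at the broadest scale and between single bins, and LNCaP more at the scales in between. Over the 41 arms the share between 10 Mb windows had a median of 18.4% in VCaP and 14.5% in LNCaP, and the long arm of chromosome 5 ranked 9th and 18th from the top.

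The lines agreed at short range and less at long range. Over the 3273 bins Pearson r was 0.29 and Spearman rho was 0.32. These correlations are across bins of the same 4 libraries, which share averaged entries and are not independent. In means of 1 Mb (132 windows) r was 0.13 and rho 0.19. In means of 5 Mb (27 windows) r was -0.14 and rho was 0.13, of opposite sign. The r of 5 Mb means rests on the last window, which holds 33 bins, and was 0.10 with rho 0.26 over the 26 other windows. With the 5 Mb running median removed, r over bins was 0.42, against 0.30 on the short arm.

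Agreement also differed along the arm. In the first VCaP stretch r over bins was 0.45, in the middle stretch 0.21 and in the last 0.20. With the running median removed these were 0.49, 0.30 and 0.39. In windows of 5 Mb r ran from -0.07 (139.5 to 144.5 Mb) to 0.79 (94.5 to 99.5 Mb), and it was over 0.5 in 8 of the 16 windows before the first step and in 1 of the 11 later ones. The median r over the 26 full windows of the arm was 0.40, against 0.50 in 516 windows of the other chromosomes. Of 112 LNCaP state borders on the arm, 28 (25%) had a VCaP border of the same direction within 80 kb, and these are 26.7% of 105 VCaP borders. On the other chromosomes the shares were 24.1% of LNCaP borders and 18.7% of VCaP borders.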

How the data were processed

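Lamin B1 ChIP-seq of LNCaP and VCaP (4 libraries, 1 per group) was read from 4 deposited tables. The authors' values are log2 enrichment of ChIP over input, unit log2, in 40 kb bins; the build hg19 and the aligner STAR are listed in the submitters' processing notes, while scaling, filters and smoothing are not given in the sources used here. The deposited states (AD or iAD) come from a hidden Markov model, per the labels.

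The deposited values behave as trailing means over 3 entries, which no source states: undoing such means brought the median absolute value of 194 merged entries in LNCaP from 0.21 to 0.0065 and of 212 in VCaP from 0.33 to 0.0067; this averaging places signal about 40 kb downstream.

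Computed here were medians, shares, windows, domains, a least-squares piecewise constant fit to means of 120 kb (penalty 10 × 3 × noise variance × the natural log of the number of means, minimum segment 2 Mb), autocorrelation and a split of variance. Noise is the median absolute difference of bins 3 apart, scaled by 1.4826 and divided by the square root of 2. Other arms were divided at the widest table entry of each chromosome. With 1 library per group no test was possible. The procedures were tested on simulated data. Simulated steps slightly larger than those of VCaP were near the limit of the penalty, and more misses and wider position errors were allowed for them. The check passes even if a large part of such steps is missed. Steps of this size may thus go unfound, here and on other arms, which limits the counts and ranges of levels.

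Named regions are, per line, the 5 longest domains and the 3 highest and 3 lowest 1 Mb windows, and for the difference every segment and the 5 highest and 5 lowest windows, with steps over 0.3. Members, lists and rules were chosen with earlier results of these data known. Alternatives changed the state definition, domain rule, threshold, zero point, scale, window, penalty, minimum segment and running median, undid the averaging, took 1 bin in 3, or left out bins beside gaps and, chosen after seeing the data, 68 to 71 Mb. Scripts ran in Python 3.11.15 with scipy 1.17.1, numpy 2.4.6, matplotlib 3.10.9 and pandas 2.3.3.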

Additional observations from a re-analysis of the deposited data

Results flagged for a closer look

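In 3 fitted segments of the long arm the mean enrichment lay on opposite sides of 0 in the 2 lines; with 1 library pair per line, these differences were not tested. From 49520001 to 131280000 the VCaP minus LNCaP mean was -0.20, with LNCaP at 0.13 and VCaP at -0.08. From 143520001 to 148200000 it was -0.61, with LNCaP at 0.57 and VCaP at -0.04. From 171000001 to 180840000 it was 0.68, with LNCaP at -0.10 and VCaP at 0.58.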

How the results depend on the processing

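Of 151 alternative values for 33 results, 108 stayed within the limits set for calling them unmoved, 41 moved and 2 changed sign. These limits were wide. For levels it was the noise SD of a single bin, which is larger than the arm medians. Unmoved values thus include the median difference, -0.10 and -0.24 with centring, and the middle VCaP stretch, 0.24 and 0.05. For counts, lengths and lags it was a ratio of 1.5, and for shares a 95% binomial interval. The changes of sign were the VCaP median of the arm, -0.12 with each line centred on its median, and Pearson r in 5 Mb windows, -0.14. Counting bins over 0 as associated gave shares of 64.5% in LNCaP and 56.9% in VCaP, and in the first and middle VCaP stretch 63.8% and 68.8% in LNCaP against 43.1% and 73.8% in VCaP. Of all bins, 56.9% were over 0 in LNCaP and 66.9% in VCaP. Counting bins over 0.5 gave 18.5% and 14.5% on the arm, and in the 3 stretches 16.2%, 24.2% and 16.7% in LNCaP against 3.00%, 23.8% and 57.9% in VCaP. Under both rules LNCaP kept the larger share of the arm. The share of all bins over 0.5 is not given here.

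The share of bins with VCaP higher by the threshold was 7.67% with centring, 8.07% with quantile normalization and 2.60% at a threshold of 1. The share with LNCaP higher was 26.7%, 24.6% and 1.34% under the same settings, and 20.5% with the averaging undone. At a threshold of 1 the shares of all bins were 3.83% with VCaP higher and 0.735% with LNCaP higher, and with centring they were 14.8% and 15.6%. Shares of all bins under quantile normalization or with the averaging undone are not given here. The share of windows with VCaP above LNCaP was 15.4% at 10 Mb, and the range of LNCaP medians was 1.23 at 2 Mb and 0.53 at 10 Mb. A halved penalty gave 23 levels in LNCaP and 13 in the difference, and a doubled one gave 1 in LNCaP. Runs of bins over 0 numbered 156 in LNCaP (median 320 kb, 23.7 switches per 10 Mb) and 207 in VCaP (median 160 kb, 31.4 switches). With a 10 Mb running median removed, the lowest autocorrelation lay at 2.80 Mb in LNCaP and 2.76 Mb in the difference. In VCaP it lay at 3.16 Mb, which is within the limit and is not counted as moved. Pearson r and Spearman rho were 0.13 and 0.19 in 1 Mb windows and 0.067 and 0.16 in 2 Mb windows, rho was 0.13 in 5 Mb windows, and r was 0.42 with the 5 Mb running median removed. The cause of these moves was not tested.

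No paired analysis was possible because there was a single library in every group. The depth of the libraries is unknown, so precision rests on the noise between bins alone, and variation between cultures was not measured.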
